A study of Mus musculus with 4 samples.

Results

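The spalt-like genes Sall1, Sall2, Sall3 and Sall4 encode a family of large zinc finger transcription factors. They are 4 of the 18193 genes named by the annotation of the array, and were measured in mouse embryonic stem cells by 7 of its 45101 probe sets. The 7 were every probe set that this platform annotation assigns to 1 of the 4 genes alone, with 2 for Sall1, 1 for Sall2, 2 for Sall3 and 2 for Sall4. Expression was profiled on 4 single-colour Affymetrix arrays of J1 embryonic stem cells of the Chd4i-1 line, which carries a Tet-on inducible RNAi construct against Chd4. In the Chd4 knockdown group (n = 2 arrays) 5 ng/ml doxycycline had been given for 3 days, and in the control group (n = 2) none. Both groups carried the construct, and all cells were kept on gelatin with 15% serum and LIF (leukaemia inhibitory factor). Each group's arrays are biological duplicates according to the series text. Both groups come from 1 RNAi line, and doxycycline-treated cells without the construct were not analysed here, so effects of doxycycline, of RNAi and of Chd4 loss cannot be told apart.

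Chd4 is the motor subunit of NuRD, a complex for nucleosome remodelling and deacetylation, which slides nucleosomes and removes acetyl groups from histones. Sall proteins carry a short conserved stretch at their amino terminus that binds the histone chaperone subunits of NuRD, and through it they bring the complex to the DNA that their zinc fingers bind. In embryonic stem cells Sall4 is an abundant factor that supports self-renewal and works with Pou5f1 and Nanog, and Sall1, also present there, can form heterodimers with it. In the embryo Sall1 acts in kidney and limb development, Sall2 in neural tube and eye development, and Sall3 in cranial nerve and palate development. The comparison asks whether depletion of the remodeller in NuRD is accompanied by altered transcript levels of the factors that recruit it.

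Sall1 fell to 45.4% and 47.7% of its control signal at its 2 probe sets in Chd4 knockdown cells, while Sall4 rose to 120% of control at its brighter probe set and 135% at its dimmer one. Sall2 gave no call, with an interval that leaves room for a moderate change either way. Sall3 signals lay under the median of the arrays in both groups and gave no basis for a fold. Of the 7 probe sets 5 passed the filter on dim signals and were tested, and 4 of these were called by limma at an adjusted p under 0.05. Of these, 2 were higher and 2 lower. Over all 27022 probe sets tested 14.2% were called, 7.46% as higher and 6.77% as lower, and the groups did not overlap at 55.9%. Among the 5 tested Sall probe sets the groups did not overlap at the 4 that were called. By gene, with each gene taken at its brightest probe set, 2 of the 3 tested Sall genes were called, against 18.1% of 12615 tested genes, and the groups of those 2 did not overlap, as was so for 60.6% of tested genes. The 4 calls come from 2 genes, so they are not 4 separate results.

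The values below are deposited MAS5 signals on a linear scale. A probe set was tested if its mean log2 signal ranked among the top 60% (controls left out), which corresponds to a signal of 42.4 or more, and the median of all non-control signals, 76.0, serves below as the mark for dim signals. The arrays stood close together in scale, with trimmed means between 496 and 497, and Pearson's r across tested probe sets was 0.982 between the knockdown arrays, 0.984 between the control arrays and 0.968 to 0.969 between arrays of different groups. Probe sets are not independent replicates, so these correlations only describe the arrays.

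Marker lists describe what else the cultures expressed, and their calls stand against 10.3% of tested genes called higher and 7.79% lower. All 8 embryonic stem cell markers were above the median on every array, with summed signals of 82987 and 82238 in the knockdown arrays and 84087 and 85483 in the control arrays, and with Utf1 called higher and Esrrb lower. The 10 trophectoderm markers summed to 5602 and 5856 in the knockdown arrays and 2904 and 2897 in the control arrays. Of these, 6 were above the median on every array and 3 (Cdx2, Elf5 and Gata3) under it on every array. Of 7 tested, 3 were called higher (Tfap2c, Krt7 and Krt18) and 0 lower. Most of the higher sum came from Tfap2c and Krt18. Tfap2c had signals of 2947 and 3200 in the knockdown arrays and 1229 and 1115 in the control arrays. Krt18 had 1194 and 1243 in the knockdown arrays and 558 and 538 in the control arrays. Among the 4 tested markers without a call, Krt8 and Ascl2 had higher mean signals and Eomes and Hand1 lower ones. The 13 primitive endoderm markers summed to 4431 and 4380 in the knockdown arrays and 3498 and 3520 in the control arrays. Of 11 tested, 2 were called higher (Lamb1 and Sparc) and 1 lower (Lama1). Lamb1 had signals of 1752 and 1654 in the knockdown arrays and 1289 and 1193 in the control arrays. Sparc had 1591 and 1684 in the knockdown arrays and 979 and 1099 in the control arrays. The remaining primitive endoderm markers together were lower in the knockdown arrays. The 9 neural markers summed to 2303 and 2312 in the knockdown arrays and 2146 and 2063 in the control arrays, with 1 of 5 tested called higher and 0 lower. The called neural marker was Tubb3, with signals of 1464 and 1539 in the knockdown arrays and 1276 and 1161 in the control arrays (limma adjusted p = 0.0385). Among the other tested neural markers, Map2 and Zfp521 had higher mean signals and Pax6 and Nes lower ones. Sox1, a neural marker that missed the filter, had signals of 21.3 and 5.40 in the knockdown arrays and 129 and 183 in the control arrays, at least 2.02-fold lower with signals raised to the median. The 11 feeder fibroblast markers summed to 933 and 865 in the knockdown arrays and 547 and 626 in the control arrays. Of these, 8 were under the median on every array, and Thy1 was called higher among 3 tested. Thy1 alone had signals of 601 and 547 in the knockdown arrays and 176 and 200 in the control arrays. The remaining feeder markers together were not higher in the knockdown arrays. The part of these markers in the Sall results was not tested. In RNA from a whole culture, fewer cells that express a gene and less RNA per cell cannot be told apart.

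The targeted transcript, Chd4, had lower signals in the knockdown arrays at all 3 of its probe sets. At 1438476_a_at, where the difference was largest, the signals were 445 and 394 in the knockdown arrays and 918 and 814 in the control arrays, or 48.5% of control (log2 difference -1.05 ± 0.12 SE, limma adjusted p = 0.000244). At the brightest, 1451295_a_at, they were 1155 and 1480 in the knockdown arrays and 2215 and 1826 in the control arrays, or 65.0% of control (adjusted p = 0.00638). Transcript of the targeted gene thus remained in the treated cells. The calls of all 3 Chd4 probe sets ended when signals were raised to the median of 76.0 (limma adjusted p = 0.0726 to 0.214). None of their own signals was under 76.0, so their log2 differences were the same in that setting. An alternative chosen after seeing the data used that floor in the top 40% of probe sets. There all 3 were called (limma adjusted p = 0.000218 to 0.00488).

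**Figure D1:**
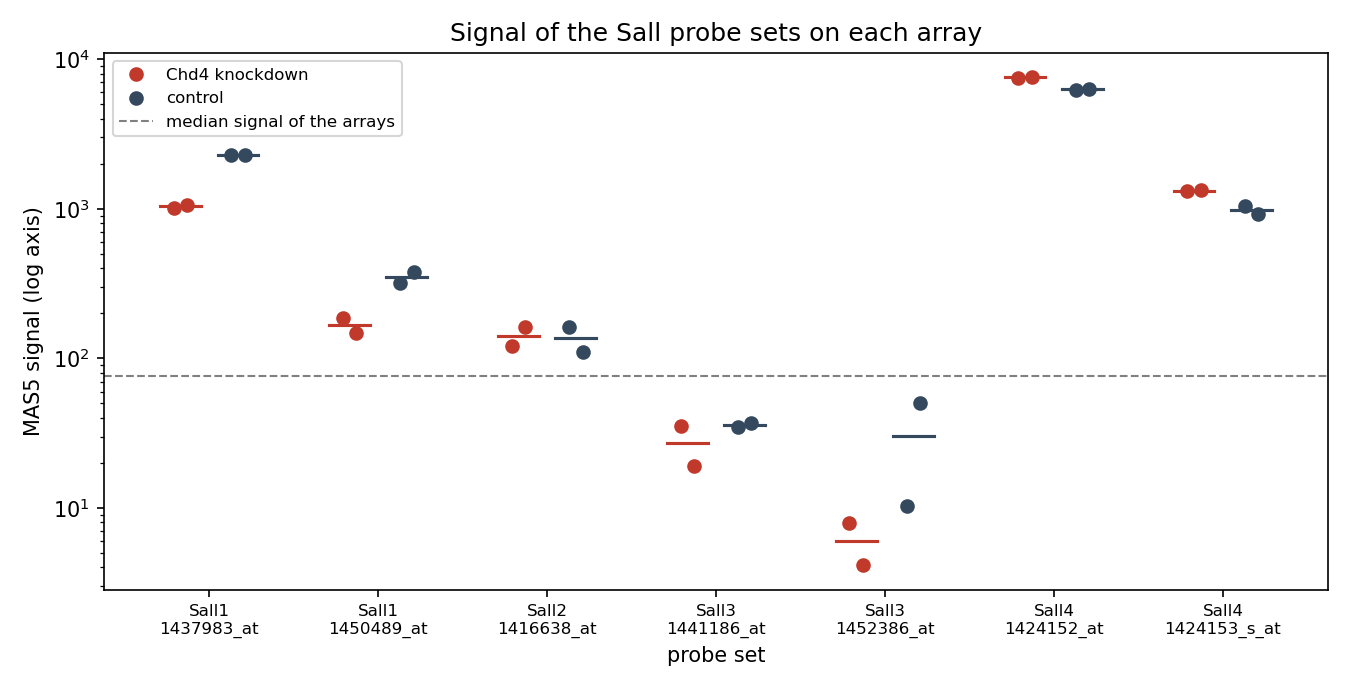
MAS5 signal (log axis) of the 7 Sall probe sets, with 1 point for each array and a bar at the mean of each group (n = 2 Chd4 knockdown arrays, left of each pair, and n = 2 control arrays). The groups are apart for Sall1 and Sall4, in opposite directions, mixed for Sall2, and all Sall3 points lie under the dashed median signal of 76.0.

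Sall1 was represented by 2 probe sets designed from different sequence records. At the brighter one, 1437983_at, the signals were 1010 and 1063 in the Chd4 knockdown arrays and 2277 and 2290 in the control arrays. Each knockdown array was far below each control array, and the 4 possible pairings of a knockdown with a control array gave between 44.1% and 46.7% of control. The mean signal was 1037 ± 37.4 in knockdown cells and 2284 ± 9.68 in control cells (SD, n = 2 each). The log2 difference was -1.14 ± 0.078 SE, with a 95% interval from -1.31 to -0.97 (limma adjusted p = 6.43e-06), which corresponds to 45.4% of control. Among the 12615 genes tested, 123 (0.975%), Sall1 included, had a log2 difference as low as this or lower.

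The dimmer Sall1 probe set, 1450489_at, had signals of 186 and 148 in the knockdown arrays and 319 and 379 in the control arrays. The groups again did not overlap, although the arrays of each group were further apart, with pairings between 39.0% and 58.3% of control. The log2 difference was -1.07 ± 0.19 SE (95% interval -1.49 to -0.65, limma adjusted p = 0.00368), or 47.7% of control. Its call ended with signals raised to the median (limma adjusted p = 0.119), although none of its own signals was under that median. With the same floor in the top 40% of probe sets it was called (limma adjusted p = 0.00295). Both Sall1 probe sets thus fell by a similar amount from signals that differed in brightness. When the log2 signals of the pair were averaged, the difference was -1.10 ± 0.10 SE (adjusted p = 0.000103, adjusted over genes).

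Promoter windows from RefSeq were matched for 2 of the 4 genes, with several transcription starts each for Sall1 and Sall2, and the window at the start furthest upstream is shown for each, as the promoter of the gene that fell and of the gene that gave no call. Each window runs from 250 bases before to 50 bases after the start (GRCm38.p6, minus strand), at chr8:89044113-89044412 for Sall1 and chr14:52328621-52328920 for Sall2. CpG dinucleotides, the sites of DNA methylation in mammals, are in capitals.
Sall1: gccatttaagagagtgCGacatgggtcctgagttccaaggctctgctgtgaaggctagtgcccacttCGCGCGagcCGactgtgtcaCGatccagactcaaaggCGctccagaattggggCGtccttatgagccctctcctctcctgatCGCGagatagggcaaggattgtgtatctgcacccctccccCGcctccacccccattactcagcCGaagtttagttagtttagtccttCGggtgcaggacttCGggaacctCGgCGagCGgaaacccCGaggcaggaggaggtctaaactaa
Sall2: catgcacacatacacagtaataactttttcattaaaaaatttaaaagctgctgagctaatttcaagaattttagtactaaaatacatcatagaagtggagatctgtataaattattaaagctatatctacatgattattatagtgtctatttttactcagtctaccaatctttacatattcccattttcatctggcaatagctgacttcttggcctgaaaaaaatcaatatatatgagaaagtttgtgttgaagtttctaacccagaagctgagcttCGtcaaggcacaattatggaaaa
The Sall1 window holds 18 CpGs, and the windows at its other starts hold 27 and 39. The Sall2 window holds 1 CpG, and that at its other start 10. Over 32851 windows of 300 bases the median was 7. The octamer ATGCAAAT, the letters bound by Pou5f1 and its relatives, was searched on both strands and occurs in none of the 5 windows, against 1.74% of all windows. Which start is used in these cells was not measured, and these counts describe the sequence only.

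**Figure D2:**
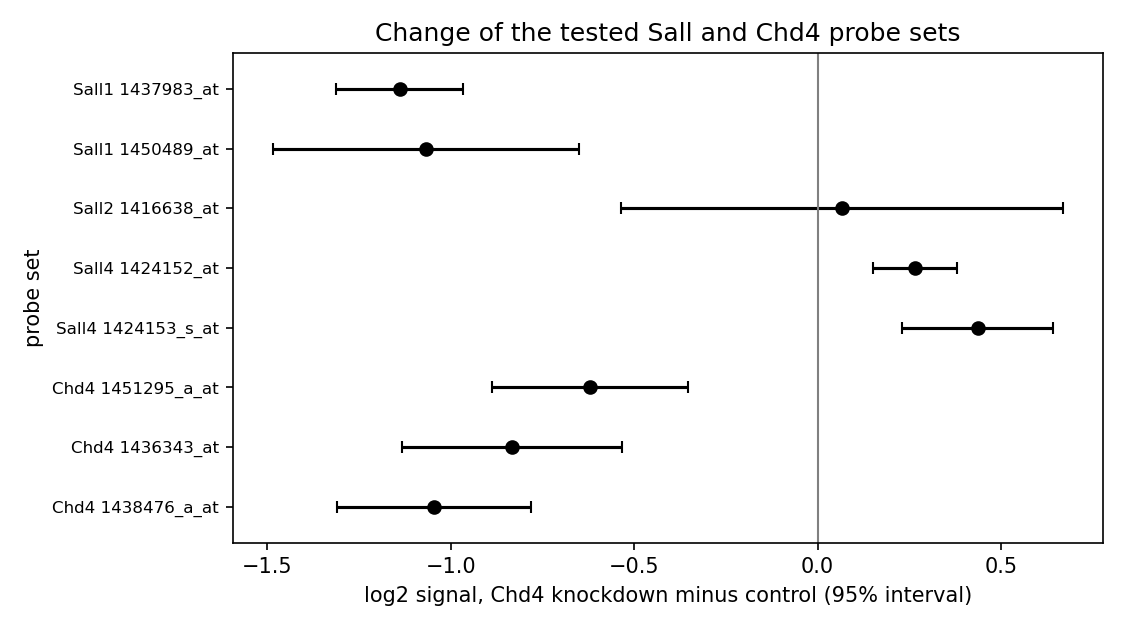
Log2 signal in Chd4 knockdown minus control (x axis) for the 5 tested Sall probe sets and the 3 Chd4 probe sets, with 95% intervals from limma (n = 2 arrays per group). Both Sall1 intervals lie below 0, both Sall4 intervals above it, and that of Sall2 spans it from -0.54 to 0.67.

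Sall4, the family member with the central role in embryonic stem cells, moved the other way by a smaller amount. At its brighter probe set, 1424152_at, the signals were 7530 and 7551 in the Chd4 knockdown arrays and 6255 and 6303 in the control arrays. This probe set lay between the 97.3 and 97.9 percentile of its array in all 4 cases, and the arrays of a group differed very little. Every knockdown array was above every control array, and the pairings gave between 119% and 121% of control. The log2 difference was 0.26 ± 0.052 SE, with a 95% interval from 0.15 to 0.38 (limma adjusted p = 0.00663). A rise of that size was common, since 2818 of the 12615 tested genes (22.3%), Sall4 included, had a log2 difference as high or higher.

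The other Sall4 probe set, 1424153_s_at, comes from the same sequence record, and its suffix marks probes that can match more than 1 transcript. Its signals were 1312 and 1336 in the knockdown arrays and 1043 and 918 in the control arrays. The groups did not overlap, with the control arrays further apart than the knockdown arrays. The log2 difference was 0.44 ± 0.093 SE (95% interval 0.23 to 0.64, limma adjusted p = 0.0100), or 135% of control. Without control replicate 2 it was 0.34 and the call ended (adjusted p = 0.0744), as it did with signals raised to the median (adjusted p = 0.121). None of the signals of 1424153_s_at was under the median. With the same floor in the top 40% of probe sets this probe set was called (limma adjusted p = 0.00730). The intervals of both Sall4 probe sets overlap, and whether they differ was not tested. Averaged over the pair, Sall4 was 0.35 ± 0.060 SE higher on the log2 scale (adjusted p = 0.00378, adjusted over genes).

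The contrast between Sall1 and Sall4 does not rest on a scaling factor common to a whole array, because such a factor cancels in a ratio within it. An effect that depends on signal level would not cancel. The log2 signal of Sall4 minus that of Sall1, at their brightest probe sets, was 2.90 and 2.83 in the knockdown arrays and 1.46 and 1.46 in the control arrays. This measure shows unequal change of the transcripts, not the abundance of one against the other. The shift between groups was 1.40 on the log2 scale, or 2.65-fold, while arrays of a group differed by at most 0.070. This shift combines the log2 differences of Sall1 and Sall4 given above and is not a separate result.

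Sall2 was measured by 1 probe set, 1416638_at. Its signals were 121 and 161 in the Chd4 knockdown arrays and 162 and 110 in the control arrays, so that the groups overlapped fully. The log2 difference was 0.067 ± 0.27 SE (95% interval -0.54 to 0.67, limma adjusted p = 0.906). The interval includes the rise of Sall4 but not a fall of the size seen for Sall1. A smaller change in either direction was not detectable at this signal.

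Sall3 had 2 probe sets, and neither passed the filter, so no test was made in the main comparison. At 1441186_at the signals were 35.3 and 19.0 in the knockdown arrays and 34.6 and 36.9 in the control arrays. At 1452386_at they were 7.91 and 4.13 in the knockdown arrays and 10.3 and 49.96 in the control arrays. All 8 values are under the median signal of 76.0. The groups overlapped at the first probe set and not at the second, where a single control array carried most of the spread. When every probe set was tested without a filter, the adjusted p values were 0.789 and 0.404.

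**Figure D3:**
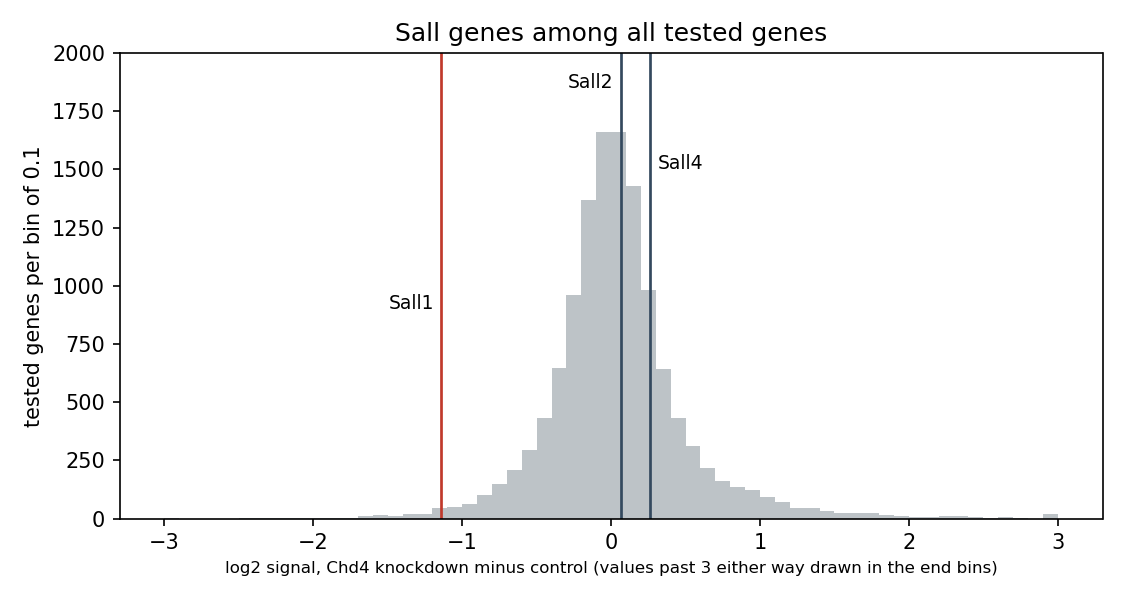
Number of tested genes (y axis) by log2 signal in Chd4 knockdown minus control (x axis, bins of 0.1), for 12615 genes at their brightest probe set. Vertical lines mark Sall1 at -1.14 in the lower tail, and Sall2 at 0.067 and Sall4 at 0.26 within the body of the distribution.

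The genes whose values across the 4 arrays were most like those of each tested Sall gene were found by the root mean square distance between centred log2 signals, among 12073 other genes. With 4 arrays in 2 groups, such likeness mainly restates the group difference for Sall1 and Sall4. For Sall2, whose groups overlapped, it mainly restates differences between arrays of the same group. For Sall1 the nearest was Foxd3 (distance 0.018), a forkhead factor of pluripotent and neural crest cells, with signals of 203 and 214 in the knockdown arrays and 466 and 474 in the control arrays (limma adjusted p = 0.000435). The next were Cpe, a peptide-processing carboxypeptidase, and Bdh2, a hydroxybutyrate dehydrogenase family gene, at 43.7% and 46.6% of control. For Sall4 they were Rab3a, a vesicle GTPase gene, P4hb, which encodes protein disulphide isomerase, and Stt3b, an oligosaccharyltransferase subunit gene, at 120%, 119% and 121% of control. Rab3a was not called, and its 1 other tested probe set had the opposite sign. For Sall2 they were Wdsub1, Mertk and Rab11fip3, none of which was called.

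The partners of the Sall proteins in NuRD were taken as a list of 17 genes, Chd4 included, of which all were tested. Of these, 5 were called higher and 3 lower, against 10.3% and 7.79% of tested genes. Chd4, the target of the RNAi, was 1 of the 3 lower. Their median log2 difference was 0.078, and that of all tested genes 0.014. The remodeller genes Chd3 and Chd5, the closest relatives of Chd4, had log2 differences of 1.34 ± 0.17 and 1.12 ± 0.19 SE (limma adjusted p = 0.000389 and 0.00286). The histone chaperone genes Rbbp4 and Rbbp7, whose products bind the Sall amino terminus, were not called, at 0.044 ± 0.047 and 0.078 ± 0.049 SE. The scaffold gene Mta3 rose by 0.63 ± 0.075 and the reader gene Zmynd8 fell by 0.96 ± 0.094 on the log2 scale (adjusted p = 0.000315 and 8.23e-05). Of the other tested probe sets, 1 of 2 for Mta3 and 1 of 4 for Zmynd8 had the same sign.

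Other zinc finger factors, listed as recruiting NuRD through a similar short stretch, gave no call at their brightest probe sets. All 6 of Zfpm1, Zfpm2, Bcl11a, Bcl11b, Zfp827 and Zfp512b were tested, 0 passed limma at an adjusted p under 0.05, and the unadjusted p was under 0.05 for 2, against 18.1% and 33.6% of tested genes. The median of the 6 log2 differences was 0.095. Zfpm2 only just passed the filter, and all its signals were under the median of 76.0. They were 70.8 and 38.2 in the knockdown arrays and 53.9 and 22.6 in the control arrays. Zfp512b, with signals of 507 and 465 in the knockdown arrays and 394 and 368 in the control arrays, had the smallest p (log2 difference 0.35 ± 0.13 SE, adjusted p = 0.102). Zfpm1, a cofactor of GATA factors, and Bcl11a, a repressor of blood and neural cells, had adjusted p values of 0.150 and 0.207, at log2 differences of 0.67 ± 0.28 and -0.68 ± 0.33 SE. Bcl11b, a T cell factor, had an adjusted p of 0.502. Bcl11a was called lower at its 2 other tested probe sets. At 1456632_at its signals were 50.4 and 29.5 in the knockdown arrays and 151 and 98.5 in the control arrays (limma adjusted p = 0.0196, at least 1.60-fold lower with signals raised to the median), and at 1457072_at they were 40.5 and 35.8 in the knockdown arrays and 101 and 88.4 in the control arrays (adjusted p = 0.0431, at least 1.24-fold lower). Over the list, 2 of 11 tested probe sets were called, against 14.2% of all tested. The 2 other tested probe sets of Bcl11b had the opposite sign to its brightest.

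**Figure D4:**
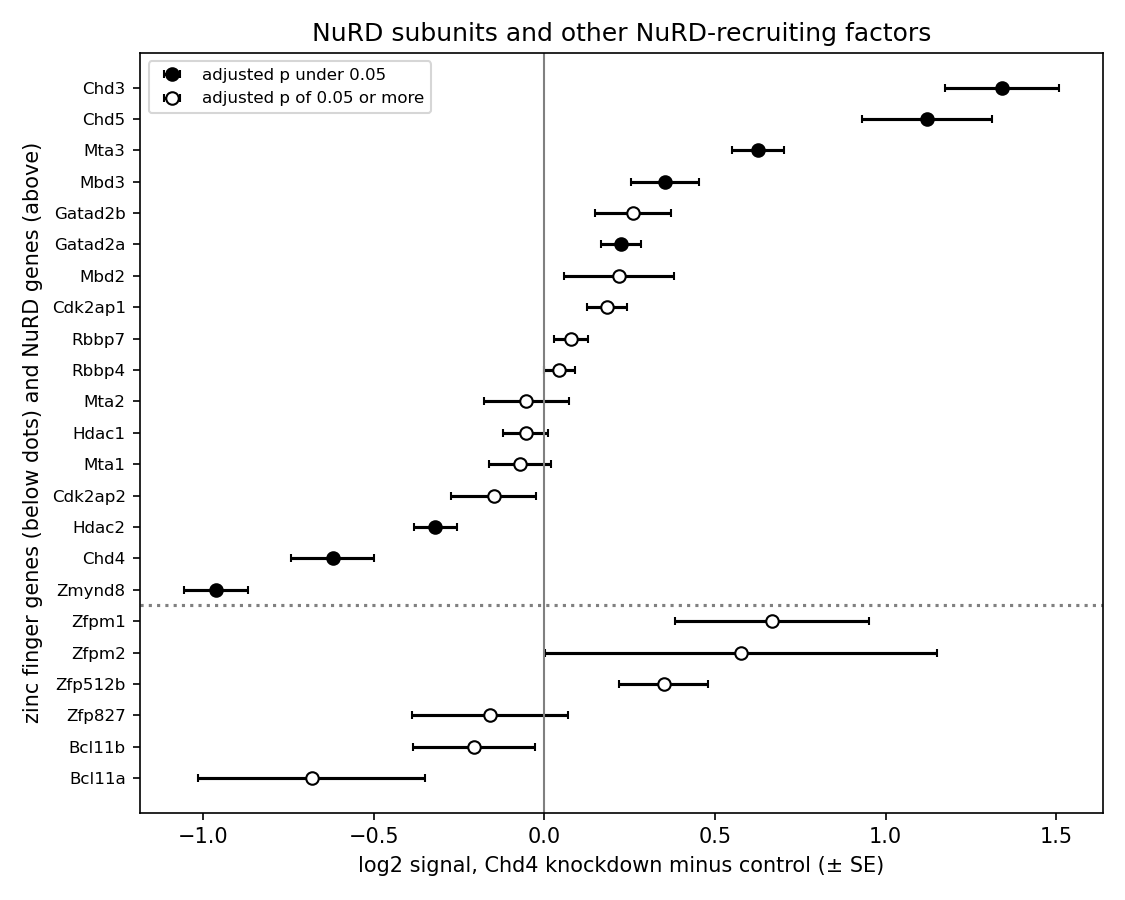
Log2 signal in Chd4 knockdown minus control (x axis, ± SE, n = 2 arrays per group) for 17 NuRD genes above the dotted line and 6 other NuRD-recruiting zinc finger genes below it, each at its brightest probe set. Filled points had a limma adjusted p under 0.05, which holds for 8 NuRD genes, the RNAi target Chd4 among them, and 0 of the zinc finger genes.

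Among 23 tested genes, from a list of 24, of the embryonic stem cell network in which Sall4 acts, 4 were called higher and 4 lower, against 10.3% and 7.79% of tested genes, with a median log2 difference of -0.048. The number called was 5 without control replicate 2 and 2 with signals raised to the median. Mycn and Klf5, a Myc family gene and a Kruppel-like factor gene, rose by 0.29 ± 0.051 and 0.42 ± 0.073 SE (limma adjusted p = 0.00322 and 0.00356), with 1 of the 2 other tested probe sets of each gene of the same sign. Tfcp2l1 and Nr0b1, a naive-state factor and a nuclear receptor that binds Pou5f1, fell by 0.44 ± 0.056 and 0.36 ± 0.071 (adjusted p = 0.000447 and 0.00661). The direct protein partners Pou5f1 and Nanog were not called, at -0.17 ± 0.059 and 0.0056 ± 0.047 (adjusted p = 0.0856 and 0.956).

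The Sall calls above came from a variance model with an intensity trend. Without the trend limma called 0 of the 27022 probe sets, 5828 of them at an unadjusted p under 0.05. The adjusted p was then 0.0659 at Sall1 1437983_at and 0.222 at Sall4 1424152_at. When the fit without the trend was restricted to the brightest probe set of each gene, Sall1 was called (adjusted p = 0.0294) and Sall4 was not (adjusted p = 0.138).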

How the data were processed

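RNA of 4 samples was hybridised to single-colour arrays. Per the labels' protocols, 6 ug of total RNA gave the biotinylated cRNA. Each deposited value is the linear-scale intensity of a probe set on an array, and the submitters' processing notes name MAS5. Its version and scaling target are not given in the sources used here. Detection calls were not used here. Dim MAS5 signals are noisy, and the 2 arrays per group limit precision.

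Groups and replicate numbers came from sample titles. Of 45037 non-control probe sets, 34945 had 1 gene symbol in the platform annotation, 932 several and 9160 none. The 64 control probe sets were left out. Log2 signals, with no pseudocount, were compared two-sided by lmFit and eBayes in limma 3.58.1 under R 4.3.3, with an intensity trend, over the 27022 probe sets in the top 60% by mean log2 signal (2 residual and 9.24 prior degrees of freedom). Benjamini-Hochberg adjustment ran over all of these, with a threshold of 0.05. Errors are standard errors of the fit.

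The genes, lists and tests were chosen with earlier results of these data known. The text names all Sall probe sets, Chd4, up to 4 genes of each list with the smallest p, 3 genes most like each tested Sall gene over the arrays, and, chosen after their values were seen, Rbbp4, Rbbp7, Pou5f1, Nanog, the markers named beside their lists and the genes next to the Sall genes. Alternatives covered the filter, pseudocount, normalization, variance model, floor, probe set choice, a replicate block and each array left out. The fit was also run on normal noise simulated over 27022 probe sets with the variances that the fit itself had estimated. It recovered 10% of 1.2-fold, 46% of 1.5-fold, 78% of 2-fold and 92% of 4-fold changes (50 of each). There were 9 calls among unchanged probe sets. A much smaller share of probe sets was changed there than was called in the data, so these rates do not give the power of this comparison.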

Additional observations from a re-analysis of the deposited data

How the results depend on the processing

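The log2 differences of both Sall1 and both Sall4 probe sets kept their sign under all 12 alternatives in which each was fitted, between -1.18 and -1.10 at Sall1 1437983_at and between 0.25 and 0.27 at Sall4 1424152_at. Counts of Sall probe sets and Sall genes called were 4 and 2 in the main comparison. Without an intensity trend 0 Sall probe sets, 0 Sall genes, 0 Chd4 probe sets, 0 NuRD genes, 0 network genes and 0 of all probe sets passed, at a lowest adjusted p of 0.0594. When only the brightest probe set of each of 12615 genes was fitted without a trend, an alternative chosen after seeing the data, 421 genes passed, with 1 Sall gene (Sall1, adjusted p = 0.0294, against 0.138 for Sall4), 2 NuRD genes and 0 network genes. With signals raised to the median of 76.0, 490 probe sets passed, with 2 Sall probe sets, 0 Chd4 probe sets, 0 NuRD genes and 2 network genes. In that setting 2122 tested probe sets were constant over the arrays. With the same floor in the top 40% of probe sets, also chosen after seeing the data, 2 Sall genes, 9 NuRD genes and 8 network genes passed. All Chd4 probe sets passed there as well.

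Leaving out 1 array at a time gave 3 to 4 Sall probe sets, 2430 to 3535 of all probe sets (against 3847 with every array) and 5 to 10 network genes (against 8), the lowest without control replicate 2, when Sall4 1424153_s_at lost its call. Over these 4 settings the log2 difference of Sall2 ran from -0.22 to 0.35, against 0.067 with all arrays, and those of the genes most like it from -0.23 to 0.36 for Wdsub1, -0.17 to 0.32 for Mertk and -0.15 to 0.35 for Rab11fip3. All 4 were below 0 without Chd4 knockdown replicate 2 or without control replicate 2. Wdsub1, Mertk and Rab11fip3 were picked for likeness to Sall2 on these same arrays, so the shared sign follows from that choice. With a replicate block 3635 probe sets passed, 4 of them Sall probe sets. Deviations of same-numbered arrays from their group means correlated at -0.0019, so the numbers were not used to pair arrays.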

Other observations

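Genes next to the Sall genes on the chromosome, taken as the nearest protein-coding gene with a probe set on either side in RefSeq order (GRCm38.p6), were looked at after the Sall values were seen. Of these 8 genes 6 were tested and 1, Tox3, was called, against 18.1% of tested genes. On the 2 sides of Sall1 lie Cyld, a deubiquitinase gene, and Tox3, an HMG-box gene. Tox3 had signals of 201 and 184 in the Chd4 knockdown arrays and 82.3 and 125 in the control arrays, the opposite direction to Sall1 (log2 difference 0.92 ± 0.26 SE, limma adjusted p = 0.0382). Cyld had signals of 324 and 274 in the knockdown arrays and 368 and 399 in the control arrays and was not called (-0.36 ± 0.15, adjusted p = 0.144). Neither gene next to Sall4 was called, with log2 differences of -0.044 ± 0.15 SE for Atp9a and -0.10 ± 0.078 for Zfp64 (adjusted p = 0.887 and 0.427). Both other tested probe sets of Atp9a had the opposite sign. Mettl3, the RNA methyltransferase gene next to Sall2, was at -0.00070 ± 0.083 (adjusted p = 0.997), and Atp9b, next to Sall3, at -0.089 ± 0.16 (adjusted p = 0.772). The olfactory receptor gene Olfr1509, on the other side of Sall2, and the galanin receptor gene Galr1, on the other side of Sall3, were too dim to be tested.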
